A study of Mus musculus with 24 samples.

Results

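The genes described here are 31 genes of T cell identity and T cell receptor signalling, chosen by name for their known function and all found among the 21671 genes of every file. They encode the chains of the CD3 complex (Cd3d, Cd3e, Cd3g, Cd247), the coreceptors (Cd4, Cd8a, Cd8b1), other surface proteins of T cells (Cd2, Cd5, Cd6, Thy1, Cd28, Icos, Ctla4), kinases and adaptors of receptor signalling (Lck, Zap70, Lat, Trat1, Themis, Skap1, Prkcq, Ubash3a), transcription factors (Tcf7, Lef1, Bcl11b, Gata3, Tbx21, Foxp3) and cytokine receptor chains (Il7r, Il2ra, Il2rb). A T cell recognises antigen with its receptor, which has no signalling tail of its own and is carried to the surface together with the CD3 chains. Lck, brought near by CD4 or CD8, phosphorylates the CD3 chains, Zap70 binds to them and phosphorylates the adaptor Lat, and costimulation through CD28 or inhibition through CTLA4 sets how far the signal goes. In the spleen, T cells share the organ with a larger B cell compartment, with NK and myeloid cells and, in the mouse, with red cell precursors.

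RNA-Seq was made from the spleens of C57/Bl6 mice of 8 weeks of age, of genotype Trp53+/+ or Trp53-/-. Mice were left unirradiated (mock) or exposed to 7 Gy of whole-body ionizing radiation (IR) and killed 4 h later. After lysis of red cells, B cells were bound to magnetic beads through B220, and the cells that flowed through the column were kept as non-B cells, a population enriched in T cells. Each of the 8 groups of cell type, genotype and treatment had 4 Trp53+/+ or 2 Trp53-/- samples, 24 in all. The values are RPKM, in which reads on the exons of a gene are scaled by its length and by the depth of the library, so that levels of different genes are per length.

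The samples held an estimated 4.73 to 10.9 M reads on exons, and 1 read on a gene of 2 kb was worth 0.0457 to 0.106 RPKM. Cdkn1a, the p53-induced inhibitor of the cell cycle, was at 69.6 to 97.8 RPKM in all irradiated Trp53+/+ samples and at no more than 5.87 in the others. Trp53 itself was at 43.4 to 49.5 RPKM in unirradiated Trp53+/+ samples and at 21.6 to 25.04 in unirradiated Trp53-/- samples, so that the Trp53-/- samples still gave reads over the gene, as also after IR with 34.6 to 41.8. The summed RPKM of 13 B cell markers ran from 1272 to 1636 in B samples and from 310.0 to 859 in non-B samples, so that the flow-through kept B cell RNA. Unirradiated Trp53+/+ non-B replicates 1 and 2 stood apart, with a summed level of 16 red cell precursor genes of 716 and 708 RPKM against 193 and 247 in replicates 3 and 4. Several irradiated Trp53+/+ samples had a raised level of 1434 olfactory and vomeronasal receptor genes, which spleen cells are not known to use. Its mean was 0.219 and 0.305 RPKM in irradiated B replicates 1 and 2 against 0.114 to 0.129 in unirradiated Trp53+/+ B samples, and 0.126, 0.168 and 0.135 in irradiated non-B replicates 1, 3 and 4 against 0.0652 to 0.0828.

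The first comparison was between non-B and B cells. The set was chosen for T cell function and the non-B fraction is enriched in T cells. Higher levels there were thus largely given by the choice. In unirradiated Trp53+/+ samples, 30 of the 31 genes were higher in non-B than in B cells, with an adjusted p under 0.05 and a log2 difference above 0.58 by limma. Cd2 was the exception, and no gene of the set was higher in B cells. Over all 14598 genes tested, 17.2% were higher in non-B and 7.38% higher in B cells. The median log2 difference was 2.99 over the set and 0.00 over all genes. The order of the levels in non-B cells began with Tcf7 at 94.4 ± 19.1 RPKM (SD, n = 4), which encodes the factor TCF1 of naive T cells. Cd2, Lat, Thy1 and Lck followed at 89.9 ± 17.7, 89.8 ± 17.8, 87.7 ± 14.7 and 79.7 ± 17.7, and these levels overlapped one another. The lowest levels were those of Il2ra at 10.5 ± 1.25, Foxp3, the factor of regulatory T cells, at 15.6 ± 1.12 (its exons overlap those of Ccdc22 and Ppp1r3f), and Gata3 at 15.7 ± 4.23 RPKM.

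The CD3 chains separated the fractions clearly. Cd3e was at 56.9, 58.2, 81.8 and 79.6 RPKM in the unirradiated Trp53+/+ non-B samples and at 4.74, 5.05, 4.11 and 5.44 in the B samples. Cd3d and Cd3g had log2 differences of 2.99 ± 0.16 (SE) and 3.35 ± 0.16. The fourth chain, Cd247 (CD3 zeta, also used by NK cells), was less separated, with a log2 difference of 0.87 ± 0.12 and a B cell level of 53.7% of the non-B level. Its exons overlap those of Pou2f1 in the GENCODE M1 annotation, which is not the UCSC one used for counting. Whether reads in the overlap affect these values was not tested.

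The B cell level was 10.9% of the non-B level in the median over the 31 genes, and under 20% for 25 of them. It was lowest for Trat1, an adaptor of the receptor complex, at 3.99%, for Bcl11b, a factor required for T cell commitment, at 5.07%, and for Gata3 at 5.38%. Lck was at 24.8 ± 0.830 RPKM in B cells, 31.2% of its non-B level, and Il2ra, the alpha chain of the IL-2 receptor, at 28.6%. The coreceptors lay between, at 16% for Cd4, 14.7% for Cd8a and 8.24% for Cd8b1. In bulk samples, these shares cannot tell T cells left in the B fraction from low expression in B cells, nor fewer cells of a type from less RNA per cell. Cd2 encodes an adhesion protein found on T and NK cells and, in the mouse, also on B cells. It was at 94.6, 96.3, 109 and 92.2 RPKM in unirradiated Trp53+/+ B samples and at 69.6, 80.8, 107 and 103 in non-B samples, so that the fractions overlapped, with a log2 difference of -0.14 ± 0.13 and an adjusted p of 0.422 (limma).

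**Figure D1:**
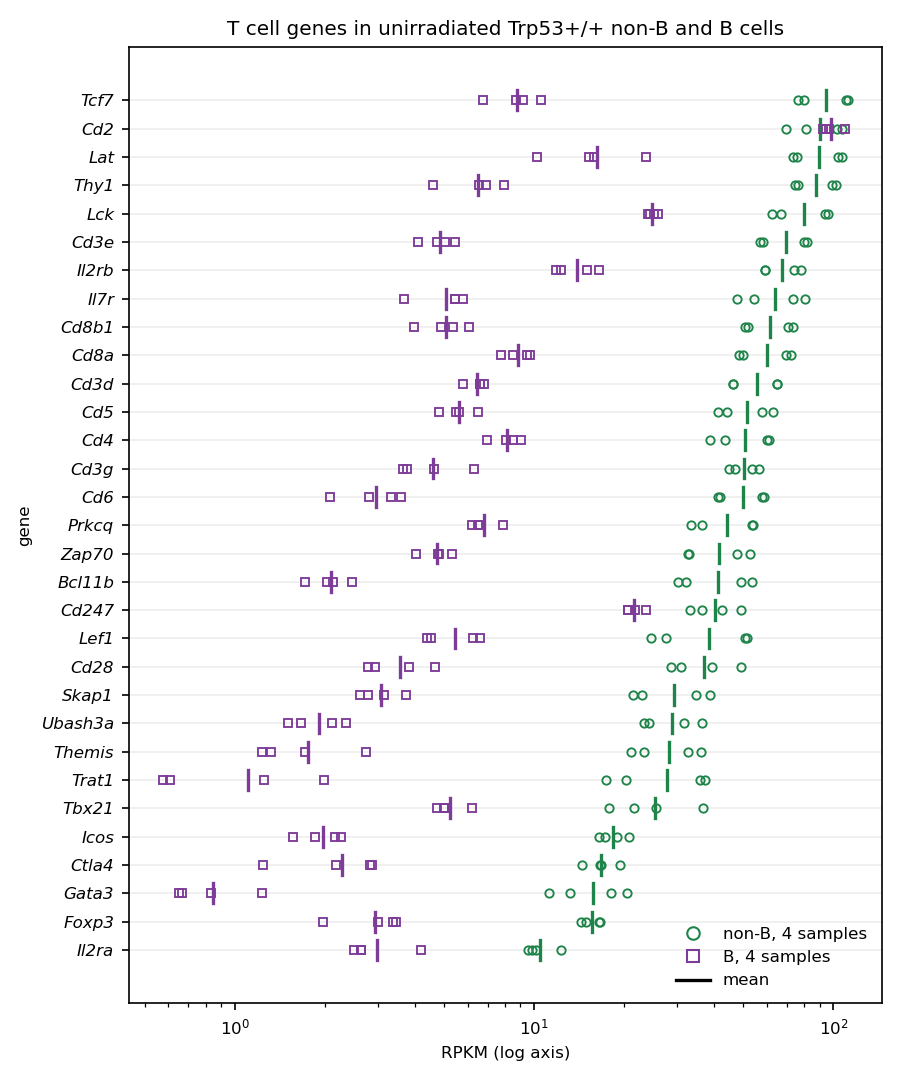
RPKM on a log axis for each of the 31 genes in unirradiated Trp53+/+ non-B samples (green circles, n = 4) and B samples (purple squares, n = 4), with vertical bars at the means and genes ordered by non-B level. The fractions are apart for every gene but Cd2, and the gap is narrowest after that for Cd247, with a B cell level of 53.7% of the non-B level.

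In non-B cells of Trp53+/+ mice, IR was followed by lower Thy1, Cd8a and Cd8b1 and higher Ctla4. These 4 of the 31 genes passed the test, 1 up and 3 down, where 5.74% of all 14018 genes tested were called up and 4.11% down. The log2 fold change was below 0 for 26 of the 31, with a median of -0.24 against -0.03 over all genes. Thy1, a surface protein of mouse T cells, was at 74.1, 76.0, 102 and 99.2 RPKM in the 4 unirradiated samples and at 50.2, 39.5, 43.9 and 42.5 in the 4 irradiated ones. All irradiated values of Thy1 (mm9, chr9:43851467-43856662) lay below all unirradiated ones, for a log2 fold change of -0.98 ± 0.13 (SE, adjusted p = 0.000538, limma). Between replicates 1 and 2 alone the means went from 75.1 to 44.9 RPKM, and between replicates 3 and 4 from 100.4 to 43.2.

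Both chains of CD8, the coreceptor of cytotoxic T cells, moved together. Cd8a was at 48.4, 49.8, 69.6 and 71.9 RPKM in unirradiated samples and at 40.5, 28.2, 45.4 and 41.5 after IR. Cd8b1 was at 51.9, 50.5, 70.6 and 73.1 and then at 43.6, 30.2, 45.4 and 44.4. For each of these 2 genes the groups did not overlap. The log2 fold changes were -0.61 ± 0.17 for Cd8a (adjusted p = 0.0305, limma) and -0.58 ± 0.16 for Cd8b1 (adjusted p = 0.0265, limma), the latter close to the threshold. Of 27 alternatives, the call of Cd8a was lost in 7 and that of Cd8b1 in 8, among them median-ratio scaling, no expression filter and the fits without unirradiated replicate 3 or 4. Cd4, the coreceptor of helper and regulatory T cells, was at 38.7, 43.4, 60.8 and 60.1 RPKM in unirradiated samples and at 49.2, 43.4, 52.7 and 54.0 after IR. Its irradiated values lay within the unirradiated range, with a log2 fold change of -0.00 ± 0.15 (adjusted p = 0.989, limma).

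Ctla4, the inhibitory counterpart of Cd28 that regulatory T cells carry constantly and other T cells after activation, rose. It was at 16.6, 19.3, 16.8 and 14.4 RPKM in unirradiated and at 29.7, 32.3, 36.3 and 43.0 RPKM in irradiated samples. The groups were far apart, for a log2 fold change of 1.05 ± 0.15 (adjusted p = 0.000957, limma). Icos, a costimulatory receptor of the same family, was at 16.4, 17.2, 20.8 and 18.9 RPKM and then at 22.9, 21.5, 33.0 and 34.9, also without overlap. Its log2 fold change of 0.57 ± 0.18 had an adjusted p of 0.0425 (limma) and fell just short of the threshold of 0.58. Cd28 itself overlapped between the groups, with a log2 fold change of -0.18 ± 0.21.

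Of the other surface and signalling genes, Cd5, Lck and Lat did not overlap between the groups either. Cd5, a negative regulator of receptor signalling, had a log2 fold change of -0.48 ± 0.15 (adjusted p = 0.0465, limma). Lck and Lat had log2 fold changes of -0.49 ± 0.15 and -0.44 ± 0.14. All 3 values had an adjusted p under 0.05 and were smaller than the threshold on the fold change. In all, 6 of the 31 genes had every irradiated value below every unirradiated value and 2 had it above, where 12.1% and 10% of all genes tested did so. Zap70 (-0.24 ± 0.17), Prkcq (-0.21 ± 0.21), Ubash3a (-0.23 ± 0.20), Themis (-0.32 ± 0.24), Trat1 (-0.32 ± 0.28) and Skap1 (-0.48 ± 0.25) did not pass on the log2 scale. Neither did the CD3 chains, whose log2 fold changes ran from -0.24 ± 0.14 for Cd3d to -0.05 ± 0.15 for Cd247, nor Cd2 at -0.33 ± 0.13 and Cd6 at -0.36 ± 0.15.

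None of the 6 transcription factors passed. Bcl11b was lowest, at -0.53 ± 0.21 on the log2 scale, followed by Tbx21, the factor of interferon-producing T and NK cells, at -0.39 ± 0.23, and by Lef1 at -0.26 ± 0.31. Gata3 at -0.11 ± 0.22, Tcf7 at -0.10 ± 0.16 and Foxp3 at 0.24 ± 0.17 lay nearer to 0. The cytokine receptor chains did not pass either, with log2 fold changes of 0.42 ± 0.17 for Il2ra, 0.10 ± 0.18 for Il7r, the receptor of the survival cytokine IL-7, and -0.05 ± 0.11 for Il2rb.

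Other cells in the fraction moved with these values. In the same comparison, 10 of the 16 red cell precursor genes fell and none rose, with sums of 193 to 716 RPKM before and 54.1 to 164 after IR. Of 16 myeloid genes 1 rose and 15 had a log2 fold change above 0, with sums of 587.6 to 665 RPKM before and 669 to 894 after IR. Of 16 cell division genes 5 fell, and of 13 B cell markers 2 fell, with B cell sums of 459 to 744 and then 310.0 to 629.7 RPKM. No marker of these 4 lists had a mean of 0 in a non-B group, and their part in the result was not tested. Without the 2 unirradiated replicates rich in red cell precursor RNA, 9 of the 31 genes passed, 1 up and 8 down, where 7.26% of all genes were then called up and 3.19% down. Cd5, Cd6, Lck, Lat and Bcl11b joined Thy1, Cd8a and Cd8b1, at log2 fold changes from -0.88 for Bcl11b to -0.59 for Cd6. Relative to the mean of Cd3d, Cd3e and Cd3g in each sample, 3 rose (Ctla4, Icos and Il2ra, at 1.25, 0.78 and 0.62) and Thy1 alone fell, at -0.77, on a scale where the median over all genes was at 0.17 and 6.48% of all genes were called up and 0.856% down. Without unirradiated replicate 4, Thy1 and Ctla4 were the 2 genes called (4.55% of all genes up and 4.46% down). The receptor gene level was 0.0846 to 0.168 RPKM in irradiated and 0.0652 to 0.0828 in unirradiated Trp53+/+ non-B samples, so that it moved with the treatment. With this level as a covariate, Ctla4 was no longer called at a log2 fold change of 0.88 (adjusted p = 0.114, limma). Thy1, Cd8a, Cd8b1 and Skap1 were called down there, where 0.756% of all genes were called down and 1.44% up.

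**Figure D2:**
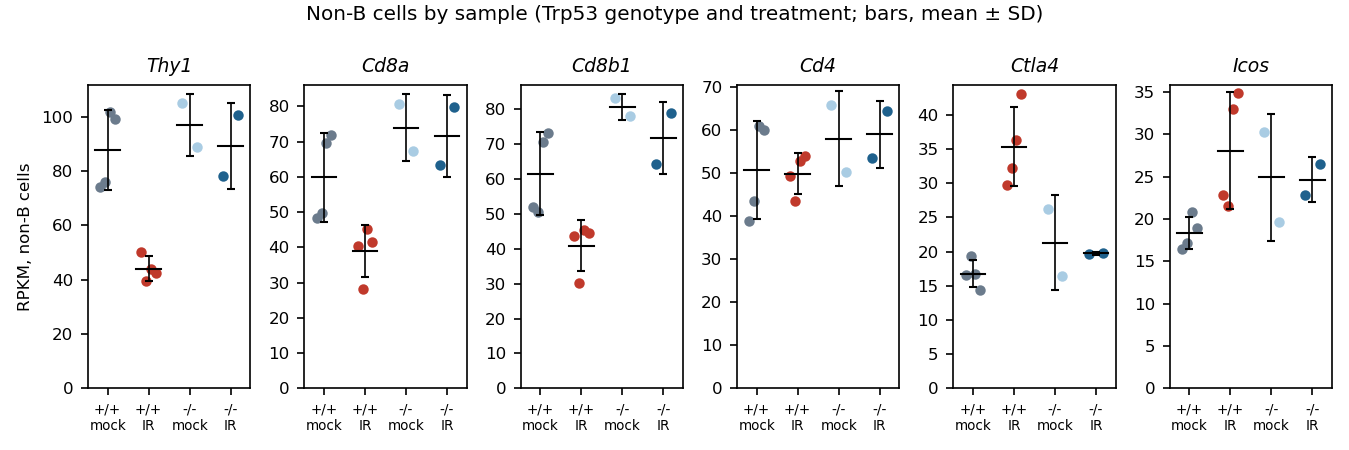
RPKM in each non-B sample for 6 of the genes, by Trp53 genotype and treatment (points, samples; bars, mean ± SD; n = 4 for +/+ and 2 for -/-). Thy1, Cd8a and Cd8b1 lie lower and Ctla4 and Icos higher in all irradiated Trp53+/+ samples than in all unirradiated ones, while the Cd4 values overlap.

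Promoters are shown for Ctla4 and Cd8a, which moved in opposite directions in non-B cells, and for Il2ra, the gene of the set with the highest log2 fold change in B cells. They are the 250 bases before the annotated start on the plus strand, from RefSeq on GRCm38.p6, a later build than the mm9 of the files, and 22 of the 31 genes had an entry. Capitals mark the core letters bound by NFAT, the calcium-dependent factor of T cell activation (GGAAA on either strand).
Ctla4, chr1:60908775-60909024: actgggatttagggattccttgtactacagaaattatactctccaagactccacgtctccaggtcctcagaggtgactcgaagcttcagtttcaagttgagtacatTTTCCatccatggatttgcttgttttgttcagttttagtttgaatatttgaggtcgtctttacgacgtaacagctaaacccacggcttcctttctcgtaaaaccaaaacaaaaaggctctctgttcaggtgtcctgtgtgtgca
Il2ra, chr2:11642542-11642791: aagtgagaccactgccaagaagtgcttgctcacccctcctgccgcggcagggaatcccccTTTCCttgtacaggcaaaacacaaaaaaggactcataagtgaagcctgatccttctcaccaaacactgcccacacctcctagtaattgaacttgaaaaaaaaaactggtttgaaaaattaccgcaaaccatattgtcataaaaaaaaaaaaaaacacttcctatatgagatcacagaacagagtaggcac
Cd8a, chr6:71373177-71373426: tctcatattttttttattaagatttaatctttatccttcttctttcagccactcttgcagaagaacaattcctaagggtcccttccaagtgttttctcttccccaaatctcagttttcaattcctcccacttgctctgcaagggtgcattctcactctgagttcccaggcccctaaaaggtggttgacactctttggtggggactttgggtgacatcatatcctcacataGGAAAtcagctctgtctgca

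Each of these 3 windows held the NFAT core once, at 144 to 140 bases before the start of Ctla4, 190 to 186 before Il2ra and 20 to 16 before Cd8a. The same letters were in 55.6% of the 27025 promoters of this length and in 16 of the 22 of the set. The p53 half-site was in none of the 3 windows, in 7.18% of all promoters and, among the 22 genes searched, in Zap70 alone. Cd4, Cd8b1, Cd2, Cd6, Cd28, Thy1, Skap1, Icos and Il2rb had no entry and were not searched. The ETS core CCGGAA was in 2 of the 22 (12.2% of all), the RUNX letters TGTGGT in 2 (14.2%), AGATAA of the GATA factors in 1 (10.3%), CTTTGA of TCF and LEF in 4 (14.0%) and TGANTCA of AP-1 in none (6.87%). Both strands were searched, and the letters CCGGAA and GGAAA overlap where the next base is an A. These are counts of letters in the window and not binding sites.

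In non-B cells of Trp53-/- mice, none of the 31 genes passed by limma, nor did any at an unadjusted p under 0.05, where 0.442% of all genes tested were called in either direction. The median log2 fold change was -0.10, and 20 of the 31 values were below 0. Thy1 was at 105 and 88.7 RPKM in unirradiated and at 78.0 and 100.5 in irradiated Trp53-/- samples, and Ctla4 at 26.2 and 16.4 and then at 19.6 and 19.9. Both pairs overlapped. Cd8a was at 80.7 and 67.4 RPKM before and at 63.5 and 79.9 after IR, and Icos at 30.2 and 19.6 and then at 22.8 and 26.5. With 2 samples a group, SEs were larger than in Trp53+/+ cells, at 0.15 to 0.44 on the log2 scale.

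Tested directly, the response to IR differed between the genotypes for Thy1 and Ctla4. The difference of the log2 fold changes (Trp53+/+ minus Trp53-/-) was -0.85 ± 0.22 for Thy1 (adjusted p = 0.0432, limma) and 1.12 ± 0.26 for Ctla4 (adjusted p = 0.0277, limma), where 2.82% of all genes were called lower and 3.72% higher. With the replicate number as a block, the adjusted p was 0.0607 for Thy1 and 0.0550 for Ctla4 (limma) and no gene of the set was called. The call of Ctla4 was lost in 8 of 25 alternatives, among them the fits without Trp53-/- irradiated replicate 1 or 2, Trp53-/- unirradiated replicate 1 or Trp53+/+ irradiated replicate 3. That of Thy1 was lost in 14 of 25 alternatives. For Cd8a the difference was -0.56 ± 0.30 (adjusted p = 0.259, limma), for Cd8b1 -0.41 ± 0.27 and for Icos 0.56 ± 0.30, none of which passed. Lat, at -0.65 ± 0.24 (adjusted p = 0.122, limma), was the other gene with an unadjusted p under 0.05.

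Markers of other cells differed in the same comparison. The difference of the log2 fold changes was below 0 for all 16 red cell precursor genes (median -1.99, 1 called) and for all 13 B cell markers (median -0.68). It was above 0 for all 13 NK cell genes (median 0.57, 1 called), all 8 platelet genes (median 1.01, 2 called) and 15 of 16 myeloid genes (median 0.72). The NK cell genes summed to 500.6 to 718 RPKM before and 537 to 620.1 after IR in Trp53+/+ samples and to 649 to 682 and then 447 to 505 in Trp53-/- samples. The myeloid genes summed to 555 to 811 and then 439.5 to 613 RPKM in Trp53-/- samples, the platelet genes to 60.4 to 77.3 and then 27.1 to 37.3, and the red cell precursor genes to 104 to 492.5 and then 157 to 183. No marker of these 5 lists had a mean of 0 in a non-B group, and their part in the differences was not tested.

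Before IR, no gene of the set was called between the genotypes in non-B cells by limma, and 1 (Cd3g) had an unadjusted p under 0.05, where 0.0428% of all genes tested were called. The level was higher in Trp53-/- samples for 29 of the 31, with a median log2 difference of 0.28 against 0.01 over all genes. Cd3g was at 73.3 and 75.5 RPKM in Trp53-/- and at 44.7, 46.9, 56.5 and 53.4 in Trp53+/+ samples, a log2 difference of 0.56 ± 0.15 (adjusted p = 0.709, limma). The summed RPKM of the 31 genes was 1957 and 1614 in unirradiated Trp53-/- samples. In unirradiated Trp53+/+ samples it was 1183 and 1257 in the replicates rich in red cell precursor RNA and 1751 and 1729.9 in the others.

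**Figure D3:**
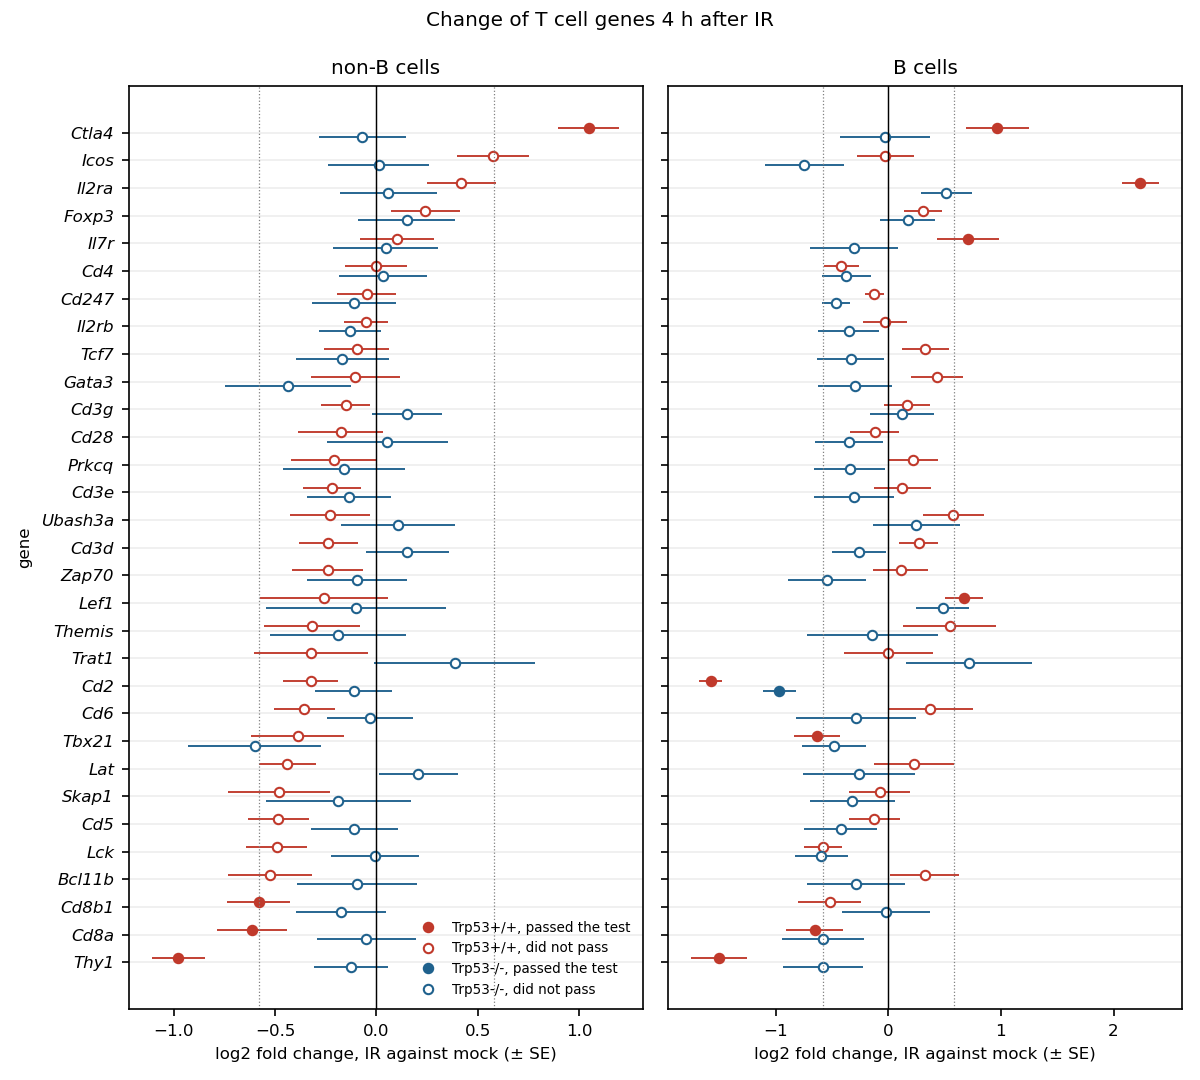
Log2 fold change 4 h after IR with its SE for the 31 genes in non-B cells (left) and B cells (right), in Trp53+/+ (red) and Trp53-/- samples (blue). Filled points passed the test, open points did not, and dotted lines mark 0.58 in either direction. In non-B cells Thy1, Cd8a, Cd8b1 and Ctla4 passed in Trp53+/+ samples and no gene in Trp53-/- samples.

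A ratio of 2 genes within a sample does not depend on the scaling of the library. It can still move with the other cells of the fraction where these use one of the genes, as NK cells do Cd247, Tbx21 and Il2rb. Among 12 ratios in Trp53+/+ non-B cells, 5 had all irradiated values above all unirradiated ones, each with an exact permutation p = 0.0286, the smallest that a two-sided test of 4 against 4 samples can give. After adjustment over the 12 ratios, all 5 were at 0.0686 and none passed 0.05. The log2 ratio of Cd4 to Cd8a was -0.32, -0.20, -0.19 and -0.26 in unirradiated and 0.28, 0.61, 0.21 and 0.38 in irradiated samples. The mean went up by 0.61, while in Trp53-/- samples it was -0.36 before and -0.28 after IR. The log2 ratio of Ctla4 to Foxp3 was 0.21, 0.22, 0.16 and -0.19 before and 0.66, 1.17, 1.02 and 0.77 after IR, and that of Icos to Cd28 went from a mean of -0.97 to -0.22.

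The other 2 of the 5 were smaller. The log2 ratio of Il7r to Cd3e had means of -0.13 and 0.19 and that of Tcf7 to Cd3e means of 0.44 and 0.57. The ratio of the CD8 chains to each other, Cd8b1 to Cd8a, had log2 means of 0.04 and 0.08 (p = 0.457, exact permutation test). That of Foxp3 to Cd4 had means of -1.65 and -1.41 (p = 0.257, exact permutation test) and that of Il2ra to Foxp3 means of -0.56 and -0.38 (p = 0.229, exact permutation test), with overlapping groups. For Lef1 to Tcf7, Tbx21 to Cd3e, Il2rb to Cd3e and Cd247 to Cd3e the differences were -0.16, -0.17, 0.17 and 0.17, with exact permutation p of 0.0857 or above.

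**Figure D4:**
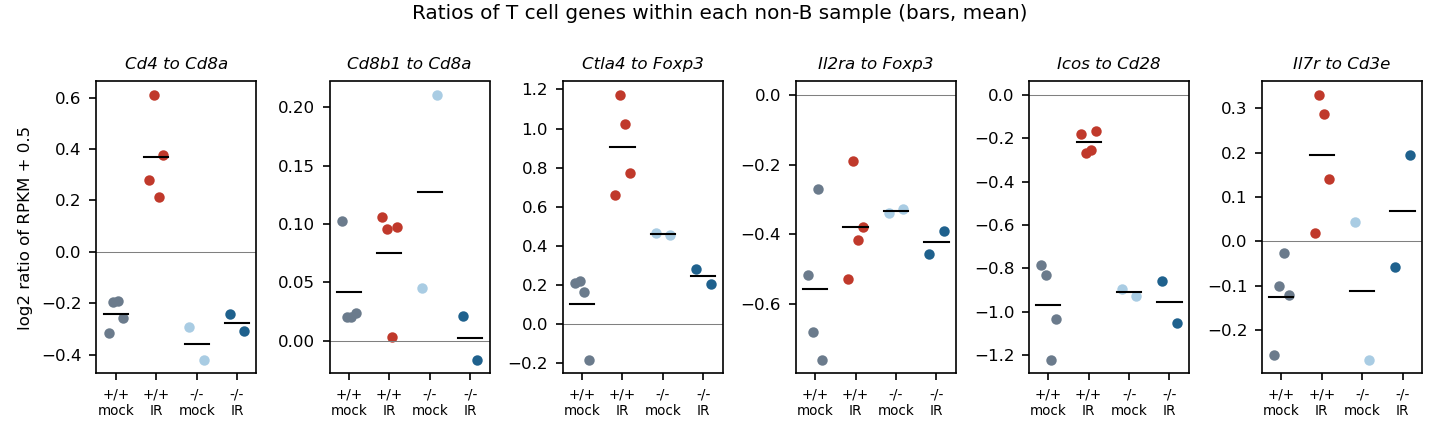
Log2 ratio of 2 genes within each non-B sample for 6 of the 12 ratios, by Trp53 genotype and treatment (points, samples; bars, mean). Cd4 to Cd8a, Ctla4 to Foxp3, Icos to Cd28 and Il7r to Cd3e lie higher in all 4 irradiated Trp53+/+ samples than in all unirradiated ones, while Cd8b1 to Cd8a and Il2ra to Foxp3 overlap.

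The other genes of the pathway begin with the receptors of costimulation and inhibition. Among 19 such genes outside the set, 5 rose in irradiated Trp53+/+ non-B cells, 1 fell and 13 did not pass, with a median log2 fold change of -0.10. Of all genes tested, 5.74% were called up and 4.11% down in this comparison. Pdcd1, which encodes the inhibitory receptor PD-1, was at 12.6, 13.6, 6.55 and 7.51 RPKM in unirradiated and 23.2, 30.5, 22.1 and 34.5 in irradiated samples, a log2 fold change of 1.45 ± 0.25 (adjusted p = 0.00301, limma). Tnfrsf9 (4-1BB) and Tnfrsf18 (GITR), costimulatory receptors of the TNF receptor family, had log2 fold changes of 1.18 ± 0.11 and 1.02 ± 0.11. Tnfrsf4 (OX40) and Tigit, at 0.80 ± 0.09 and 0.82 ± 0.14, are the other 2 that rose, and were chosen for naming after their values were seen. With the receptor gene level as a covariate, Tigit was at 0.90 and no longer called (adjusted p = 0.0949, limma), while the other 4 remained called. Cd40lg, the ligand through which T cells help B cells, fell by 0.89 ± 0.28 on the log2 scale (adjusted p = 0.0479, limma), a call lost in 14 of 27 alternatives. The receptor covariate was 1 of these, with Cd40lg at -1.66 (adjusted p = 0.0802, limma).

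None of these genes passed in Trp53-/- non-B samples by limma, where the log2 fold changes were 0.38 ± 0.35 for Pdcd1, -0.03 ± 0.16 for Tnfrsf9, -0.24 ± 0.15 for Tnfrsf18, 0.06 ± 0.13 for Tnfrsf4 and -0.05 ± 0.20 for Tigit. The difference between genotypes passed for Tnfrsf9 at 1.21 ± 0.20 (adjusted p = 0.00544, limma), Tnfrsf18 at 1.26 ± 0.18 (adjusted p = 0.00309, limma) and Tnfrsf4 at 0.74 ± 0.16 (adjusted p = 0.0214, limma). The calls of Tnfrsf9 and Tnfrsf18 held in all 25 alternatives, and that of Tnfrsf4 was lost in 4, with the receptor covariate and without Trp53-/- irradiated replicate 1 or 2 or Trp53-/- unirradiated replicate 1. The genotype difference did not pass for Tigit, at 0.87 ± 0.24 (adjusted p = 0.0537, limma), or Pdcd1, at 1.07 ± 0.43. Nor did it pass for Cd40lg. In Trp53+/+ B cells, Tnfrsf18, Tnfrsf9 and Tnfrsf4 were called up as well, where 12.5% of all genes were. Mean Tnfrsf18 went there from 21.6 to 59.2 RPKM. In Trp53-/- B cells it was called down, from 21.9 to 13.7 RPKM. Its genotype difference in B cells was called in all 23 alternatives, at 1.98 to 2.3. The B cell calls of Tnfrsf9 and Tnfrsf4 were lost in 8 and 5 of 25 alternatives. The part of B cell RNA in the non-B rises was not tested.

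Among 32 further genes of receptor signalling, 2 fell and none rose, with a median of -0.07. Counts in this and the following lists stand beside the 5.74% of all genes tested that were called up and the 4.11% called down. Sit1, an inhibitory adaptor, was at 24.4, 26.9, 39.5 and 39.1 RPKM and then at 14.8, 11.5, 13.5 and 15.5, a log2 fold change of -1.18 ± 0.20 (adjusted p = 0.00252, limma). Rasgrp1, which passes the signal on to Ras, fell by 0.61 ± 0.14 on the log2 scale (adjusted p = 0.0156, limma), with -0.863 to -0.405 over 27 alternatives. The call was lost in 7 of them, among these median-ratio scaling, quantile normalization and the fits without unirradiated replicate 3 or 4 or irradiated replicate 1. In B cells Rasgrp1 and Sit1 were called down too, in both genotypes. Mean Rasgrp1 went there from 49.9 to 15.6 RPKM in Trp53+/+ and from 55.0 to 22.2 in Trp53-/- samples. Of genes named below, Id3 was called down and Myb up in B cells of both genotypes, and Socs3 up in Trp53+/+ B cells. The part of B cell RNA in the non-B changes was not tested. Among 20 genes of cytokine reception, Socs3, a feedback inhibitor of cytokine signalling, rose by 0.97 ± 0.17 and none fell. Among 22 further transcription factors of T cells, Rora, which T helper and innate lymphoid cells use, rose by 0.90 ± 0.16. Its log2 fold change was -0.77 ± 0.22 in Trp53-/- samples (adjusted p = 0.127, limma), and the difference between genotypes passed at 1.67 ± 0.27 (adjusted p = 0.00546, limma). No other gene of the receptor signalling, cytokine reception and transcription factor lists passed for that difference, where 3.72% of all genes were called higher and 2.82% lower. In the same list Id3 and Myb had log2 fold changes of -1.09 ± 0.17 and -0.61 ± 0.17. Myb is also a factor of blood progenitors, and its call was lost in 11 of 27 alternatives, among them both other scalings, Trp53+/+ samples alone and the fits without unirradiated replicate 1, 2 or both or irradiated replicate 1 or 2. With the receptor gene level as a covariate, Rora was no longer called at 0.55 (adjusted p = 0.248, limma), nor were Socs3 at 1.13 and Id3 at -1.09 (adjusted p = 0.0904 and 0.104, limma). The difference of Rora between genotypes was then 1.35 (adjusted p = 0.0556, limma). Of 13 NK cell genes none passed, and 7 of their log2 fold changes were above 0.

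In B cells of Trp53+/+ mice, the response to IR was led by Cd2, Thy1 and Il2ra. Of the 31 genes 8 passed, 4 up (12.5% of all 13821 genes tested were called up) and 4 down (12.2% down), a share close to that of all genes. In the same comparison 11 of 16 red cell precursor genes and 11 of 16 cell division genes fell, with sums of 97.5 to 190.2 and 106 to 234 RPKM before and 68.1 to 77.1 and 91.7 to 115.5 after IR. Of 13 B cell markers 3 fell, with sums of 1421 to 1636 and then 1292 to 1425 RPKM, and of 16 myeloid genes 3 fell, with sums of 681 to 911 and then 547 to 806.5. The 13 NK cell genes had sums of 119.8 to 177.5 and then 113 to 172 RPKM. No marker of these 5 lists had a mean of 0 in a B cell group, and their part in the results was not tested. Cd2 fell from 94.6, 96.3, 109 and 92.2 RPKM to 37.8, 35.5, 25.5 and 32.5, a log2 fold change of -1.58 ± 0.10 (adjusted p = 1.23e-07, limma). Il2ra rose from 2.64, 2.63, 2.51 and 4.19 RPKM to 12.8, 14.9, 17.8 and 17.8, a log2 fold change of 2.24 ± 0.16 (adjusted p = 3.01e-07, limma). The groups of both genes were far apart. After IR the level of Il2ra in B cells was 111% of that in non-B cells, and that of Cd2 46.3%.

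Thy1 was at 7.96, 6.52, 4.61 and 6.91 RPKM in unirradiated and 2.24, 1.92, 2.08 and 1.56 in irradiated B samples, a log2 fold change of -1.499 ± 0.25 (adjusted p = 0.000307, limma). All irradiated values lay below all unirradiated ones, and the B cell level was 7.41% of the non-B level before and 4.43% after IR. Tbx21 and Cd8a fell by 0.63 ± 0.20 and 0.65 ± 0.26 on the log2 scale (adjusted p = 0.0190 and 0.0484, limma). The call of Tbx21 was lost in 3 of 25 alternatives and that of Cd8a in 9, among them median-ratio scaling, quantile normalization and the fits without irradiated replicate 3 or 4 or any 1 of the unirradiated replicates. Ctla4, Il7r and Lef1 had log2 fold changes of 0.97 ± 0.28, 0.70 ± 0.27 and 0.67 ± 0.17 (adjusted p = 0.0120, 0.0481 and 0.00496, limma). The call of Il7r was lost in 12 of 25 alternatives, 8 of them fits without 1 sample. Lef1 encodes a factor of naive T cells that B cell precursors use too. Lck and Cd4, with log2 fold changes of -0.58 ± 0.17 and -0.42 ± 0.15, had an adjusted p under 0.05 and did not reach the threshold on the fold change. The CD3 chains did not pass, at 0.27 ± 0.17 for Cd3d, 0.12 ± 0.25 for Cd3e, 0.16 ± 0.20 for Cd3g and -0.12 ± 0.09 for Cd247, and Cd247 was again the closest of them to its non-B level, at 51.2%.

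The irradiated B samples with a raised receptor gene level, replicates 1 and 2, held more of most genes of the set. Both lay above both other irradiated samples for 26 of the 31 genes and below them for Cd247 and Il2ra, and the samples overlapped for Thy1, Trat1 and Il2rb. How many of all genes separated in this way was not counted, so the count is not read as a trait of the set. Cd3e was at 6.98 and 8.26 RPKM there against 3.58 and 3.68 in replicates 3 and 4, Il7r at 9.63 and 14.6 against 7.18 and 5.04, and Ctla4 at 5.95 and 7.44 against 3.09 and 3.67. Without these 2 samples, 6 of the 31 genes passed, where 12.9% of all genes were called up and 13.4% down. Il2ra was then the only one that rose, at 2.41, and Cd2, Thy1, Cd8a, Cd8b1 and Lck fell, at -1.75, -1.58, -1.09, -0.999 and -0.89 on the log2 scale. Ctla4, Il7r, Lef1 and Tbx21 were no longer called, at log2 fold changes of 0.53, 0.24, 0.52 and -0.69. The fold change of Tbx21 was thus no smaller than with all samples (adjusted p = 0.0516, limma). Without unirradiated replicate 1, 5 genes passed (12.8% of all genes up and 11.3% down). The part of the receptor gene level in these results was not tested.

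In B cells of Trp53-/- mice, Cd2 was the 1 gene of the set called by limma. It was at 97.8 and 100.6 RPKM before and at 51.6 and 49.5 after IR, a log2 fold change of -0.97 ± 0.15 (adjusted p = 0.000239, limma), where 11.2% of all genes were called down and 13.1% up. Il2ra was at 3.71 and 4.75 and then at 6.01 and 6.46 RPKM, with a log2 fold change of 0.52 ± 0.23 that did not pass. Lck was at 29.1 and 21.5 and then at 13.8 and 19.5, with a log2 fold change of -0.59 ± 0.24 (adjusted p = 0.0629, limma), and Cd247 had a log2 fold change of -0.46 ± 0.12 (adjusted p = 0.00999, limma) that was under the threshold. Without irradiated Trp53-/- replicate 2 or unirradiated Trp53-/- replicate 2, 5 and 4 genes passed, all down, where 15.2% and 9.13% of all genes were called down.

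The response differed between the genotypes for Il2ra and Cd2. The difference (Trp53+/+ minus Trp53-/-) was 1.72 ± 0.28 for Il2ra (adjusted p = 0.00138, limma) and -0.61 ± 0.18 for Cd2 (adjusted p = 0.0323, limma), where 6.56% of all genes were called higher and 5.43% lower. The call of Il2ra held in all 23 alternatives and that of Cd2 was lost in 11 of 23, among them median-ratio scaling, quantile normalization and the replicate block (adjusted p = 0.0511, limma). For Thy1 the difference was -0.92 ± 0.43 and for Ctla4 1.00 ± 0.49, neither of which passed (adjusted p = 0.162 and 0.179, limma). Before IR, none of the 31 genes was called between the genotypes in B cells by limma, where 0.0506% of all genes were, and 2 (Lef1 and Il2ra) had an unadjusted p under 0.05.

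**Figure D5:**
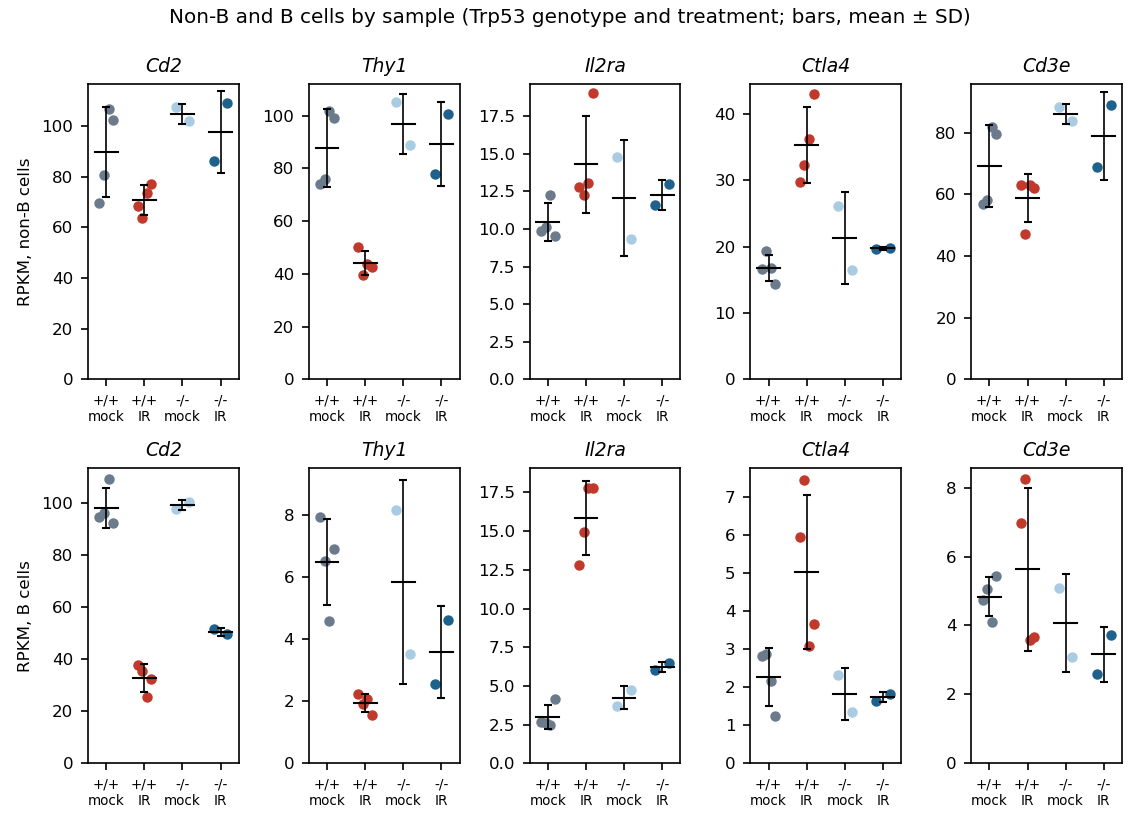
RPKM in each sample for 5 of the genes in non-B cells (top) and B cells (bottom), by Trp53 genotype and treatment (points, samples; bars, mean ± SD; n = 4 for +/+ and 2 for -/-). In B cells Cd2 falls in both genotypes and Il2ra rises to 12.8 to 17.8 RPKM in Trp53+/+ samples, while Cd3e overlaps between the treatments.

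The response to IR differed between the cell fractions for the same pair of genes. In a fit of both fractions of Trp53+/+ mice, the difference of the log2 fold changes (non-B minus B) was 1.25 ± 0.19 for Cd2 (adjusted p = 0.000172, limma) and -1.82 ± 0.24 for Il2ra (adjusted p = 5.00e-05, limma). Over all genes 8.90% were called higher and 9.88% lower, so that 1 gene of 31 in each direction is not above that share. Both calls held in all 25 alternatives, and with the receptor gene level as a covariate 10 genes were called, 1 higher and 9 lower, where 9.10% of all genes were called higher and 10.5% lower. Without irradiated B replicate 3 or 4, or unirradiated non-B replicate 1, 4, 5 and 4 genes were, 1 of them higher each time, where 8.01% to 8.87% of all genes were called higher and 9.07% to 9.37% lower. For Thy1, which fell in both fractions, the difference was 0.52 ± 0.21 (adjusted p = 0.0747, limma), and for Ctla4, which rose in both, 0.08 ± 0.34 (adjusted p = 0.889, limma). Icos, at 0.60 ± 0.26, and Bcl11b, at -0.85 ± 0.33, did not pass.

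After IR, 30 of the 31 genes were again higher in Trp53+/+ non-B than in B cells by limma, where 20.3% of all genes were called higher and 15.3% lower. The exception was now Il2ra, with a log2 difference of -0.15 ± 0.17 (adjusted p = 0.443, limma), and Cd2 had joined the others at 1.11 ± 0.13. Thy1 had the largest difference of the set, at 4.19 ± 0.15, and Cd247 the smallest of those that passed, at 0.94 ± 0.12. Counts of 30 before and after IR held in all 25 alternatives.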

How the data were processed

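The authors deposited 1 file of RPKM per sample. As their methods and submitters' processing notes state, bases of a quality under 20 were masked, reads were aligned to mm9 with TopHat (TopHat2 2.0.8 in the notes), duplicates were reduced to 1 read and reads on UCSC exons were counted with featureCounts 1.4.5, after Ribo-Zero and TruSeq v2 preparation. The counting options their methods list hold no strand setting, so reads of overlapping genes on opposite strands cannot be told apart. RPKM are not counts, so no count model was used. Genes with RPKM above 1 in at least 1 Trp53+/+ sample of a fit were tested on log2(RPKM + 0.5), whose pseudocount shrinks the change of low genes, with limma 3.58.1 (R 4.3.3, trended eBayes), in 1 fit for non-B, 1 for B and 1 for both fractions of Trp53+/+ samples. A gene passed with a Benjamini-Hochberg adjusted p under 0.05 over all genes tested and an absolute log2 fold change above 0.58. Ratios were compared by exact permutation tests. Other steps used Python 3.11.15, numpy 2.4.6, pandas 2.3.3 and matplotlib 3.10.9.

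The 31 genes and the lists of other genes were chosen with earlier results of these data known. All 31 were tested in each fit. All of them are named, with at most 3 called genes of each further pathway list and direction in irradiated Trp53+/+ non-B cells, except where the count was small. The methods give 4 Trp53+/+ and 2 Trp53-/- mice a condition, as many as the samples. The sources used here do not say whether B and non-B samples of 1 number share a mouse. Same-numbered unirradiated and irradiated Trp53+/+ non-B samples deviated together, with correlations of 0.156 to 0.323 over genes. Samples of different number did so as well within replicates 1 and 2 and within 3 and 4. Unirradiated 3 with irradiated 4 was at 0.314 and unirradiated 2 with irradiated 1 at 0.305. Across these sets the correlations ran from -0.374 to -0.136. The numbers, taken from the sample titles, may thus mark sets of samples there, and whether each number pairs samples is not shown. The fits and permutation tests reported have no block, and the value with the replicate number as a block is given where it changes a call. No replicates were near-duplicates. Depth was estimated from the steps that single reads leave in low RPKM values, with gene lengths of GENCODE M1 (found for 91.9% of genes), and in each sample 59% to 70.5% of low values came within 0.1 reads of an integer, against 20% by chance. The scripts were tested on simulated data. Alternatives were 12 settings, 3 settings chosen after seeing the data (without the 2 red cell rich samples, without the 2 irradiated samples of highest receptor gene level, and crossed replicate numbers) and 24 fits each without 1 sample.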

Additional observations from a re-analysis of the deposited data

Results flagged for a closer look

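Of 124 groups of 4 Trp53+/+ samples (31 genes in 4 groups), 6 had 1 sample far from the other 3 by Dixon's test, where chance alone gives about 1 in 20. In irradiated non-B replicate 2, Cd3e (47.2 RPKM), Cd8b1 (30.2) and Prkcq (25.4) lay below the other 3 samples. In irradiated non-B replicate 4, Il2ra (19.1) lay above them. In unirradiated B cells, Il7r was low in replicate 3 (3.68) and Il2ra high in replicate 4 (4.19).

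Responses to IR that differed by a test of the difference itself were those of Thy1 (-0.85) and Ctla4 (1.12) between genotypes in non-B cells, of Cd2 (-0.61) and Il2ra (1.72) between genotypes in B cells, and of Cd2 (1.25) and Il2ra (-1.82) between non-B and B cells of Trp53+/+ mice, all on the log2 scale. With the replicate number as a block, the calls of Thy1 and Ctla4 between genotypes in non-B cells and of Cd2 between genotypes in B cells were lost (adjusted p = 0.0607, 0.0550 and 0.0511, limma).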

How the results depend on the processing

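With 1 sample left out in turn, the count of the 31 genes that passed ran from 2 to 6 for IR in Trp53+/+ non-B cells (4 with all samples), 0 to 2 for the genotype difference in non-B cells (2), 5 to 9 for IR in Trp53+/+ B cells (8), 1 to 5 for IR in Trp53-/- B cells (1), 1 to 2 for the genotype difference in B cells (2) and 2 to 5 for the difference between fractions (2). It was 0 throughout for IR in Trp53-/- non-B cells and for both comparisons of unirradiated genotypes, and 30 for non-B against B cells. In the fits without 1 Trp53+/+ sample, 4.07% to 5.93% of all genes were called up for IR in Trp53+/+ non-B cells and 2.52% to 5.24% down. For IR in Trp53+/+ B cells it was 11.6% to 13.0% up and 11.3% to 13.1% down. For the ratios, the count was 0 with all samples and with any 1 left out. This says little, since with so few samples a ratio passes the adjustment only where many of the 12 are fully separated. With no expression filter, 2 genes passed for IR in Trp53+/+ non-B cells, 0 for the genotype difference in non-B and 1 in B cells, with more genes tested. Of all genes, 3.28% were then called up and 1.76% down for IR. For the genotype difference, 2.03% were called higher and 1.21% lower in non-B cells, and 3.68% and 2.56% in B cells. Median-ratio scaling gave 1 for the genotype difference in each fraction and 2 for IR in Trp53-/- B cells. Of all genes, 4.27% were then called higher and 2.66% lower for that difference in non-B cells, and 7.86% and 3.63% in B cells. For IR in Trp53-/- B cells it was 11.1% up and 13.1% down. Quantile normalization gave 1 for the genotype difference in B cells (6.71% of all genes higher and 4.54% lower). It gave 2 for IR in Trp53-/- B cells (12.2% up and 11.9% down). The replicate block gave 0 for the genotype difference in non-B cells, where 3.97% of all genes were called higher and 2.67% lower. It gave 1 for that difference in B cells (6.01% and 5.12%). For IR in Trp53-/- B cells it gave 2 (13.0% up and 10.9% down), where Lck joined (adjusted p = 0.0496, limma). The block changed no other count. The numbers in B cells were not shown to pair samples (same-number correlations of 0.0152 to 0.0868 in Trp53+/+ cells). In Trp53-/- non-B cells the same-number correlation was -0.253, and with numbers crossed there the genotype difference gave 3 calls and IR in Trp53+/+ cells 4. With the receptor gene level as a covariate, 0 genes passed for the genotype difference in non-B cells, 4 for IR in Trp53-/- B cells and 10 for the difference between fractions, and all calls for IR in Trp53+/+ non-B cells went from 1381 to 308. The 4 in Trp53-/- B cells were all down, where 12.5% of all genes were called down. For the genotype difference in non-B cells, 1.43% of all genes were then called higher and 0.428% lower. Without the 2 irradiated samples of highest receptor gene level, 0 passed for the genotype difference in non-B cells and 2 for IR in Trp53-/- B cells. Without the 2 red cell rich samples 9 passed for IR in Trp53+/+ non-B cells and 4 for the genotype difference there. Those 4 were 1 higher and 3 lower, where 4.81% of all genes were called higher and 2.67% lower. The causes were not tested. The share of all calls that were up went from 58.3% to 88.3% in non-B and from 50.6% to 30.2% in B cells relative to the CD3 chains (all-gene medians of 0.17 and -0.17), from 54.7% to 68.4% with median-ratio scaling for the genotype difference in B cells, and from 69.97% to 49.3% before and 57.0% to 44.7% after IR with quantile normalization for non-B against B cells. Of 8401 values of the 31 genes under an alternative, 78 lost and 75 gained a call and none reversed a call, while 379 changed sign with no call in either. Levels in B cells near 1 RPKM rest on few reads, and 2 Trp53-/- samples a group limit what could be called there.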
